A study of Saccharomyces cerevisiae with 24 samples.

Results

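The cytoplasmic ribosomal protein genes of *Saccharomyces cerevisiae* were followed through the first hour after 30 s of long-wavelength ultraviolet laser irradiation. They were chosen by name, as every gene written RPL or RPS with a number and an optional A or B, together with *RPP0*, *RPP1A*, *RPP1B*, *RPP2A* and *RPP2B*. The rule found 137 of the 6427 genes, 81 of the large and 56 of the small subunit, and used no measured value. Of these, 118 form 59 pairs of A and B paralogs and 19 are present as a single gene.

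All libraries came from BY4741, a haploid laboratory strain whose genotype lists the same auxotrophic mutations for control and irradiated cells. Each of 3 cultures was washed, chilled in buffer and divided into a control portion left on ice and a laser portion. The laser portion was spread over tubes, irradiated for 30 s and combined again. Both portions were put into fresh YEPD, a rich medium, and sampled after 0, 15, 30 and 60 min (T0, T15, T30 and T60). This gives 24 libraries in 8 groups of 3. Replicate numbers are read here as culture numbers, which the labels do not state. Light and the handling of the irradiated tubes cannot be told apart. *LEU2* and *URA3*, which the strain lacks, sat at the lowest deposited value, 0.021 RPKM, in all 24 libraries. *HIS3*, whose allele in this strain is a partial deletion, had 106 to 168 RPKM. *MET17*, the standard name of *MET15*, had 31.2 to 482 RPKM and was above the lowest value in every library, which goes against its listing as deleted. RPKM counts reads per kilobase of coding sequence, scaled to a fixed number of reads per library. The libraries held from 2570000 to 5393500 reads, and the member with the fewest reads in any library had 225.

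Every cytoplasmic ribosome holds 1 large and 1 small subunit, and yeast builds both from ribosomal RNA and a fixed set of proteins. Because ribosome making takes up much of a growing cell's resources, the genes for these proteins are switched on and off together. The factors Rap1, Fhl1, Ifh1 and Sfp1 drive them in rich medium under control of the TOR pathway, and their transcripts fall in starvation and in most stresses. After an old genome duplication many of the proteins kept an A and a B gene, which often code for nearly the same protein from different promoters.

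Upstream sequences are shown because the members moved together, and the letters bound by Rap1 and Abf1, another general regulator, are the main sequence features known at these promoters. In the 500 bases before the start codon, on either strand, ACCCNNACA stood in 54 of 137 members (39.4%), against 5.48% of 6002 protein-coding genes. ATCCNNACA, a variant of the same Rap1 core, stood in 50 members (36.5%), against 5.83% of all genes. The Abf1 motif stood in 13 members (9.49%), against 18.1% of all genes, and 94 members (68.6%) held at least 1 of the 3, against 27.3%. The 3 motifs were counted separately, so a gene may hold more than 1. Counted from the start codon, the nearest ACCCNNACA lay between positions -489 and -162, with a median of -313. Letters that match are a description and not a measured binding site. In the R64 stretches below, read 5′ to 3′ on the strand of the gene, capitals mark the matches, which may lie on either strand. *RPL9A* was furthest below its control at T15, *RPS10B* and *RPL26A* carry both Rap1 forms, and *RPL8A* and *RPL8B* are paralogs with different motifs.
RPL9A, chrVII:228590-228669, minus strand: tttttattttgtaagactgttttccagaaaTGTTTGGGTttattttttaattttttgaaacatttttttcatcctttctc
RPS10B, chrXIII:732174-732253, plus strand: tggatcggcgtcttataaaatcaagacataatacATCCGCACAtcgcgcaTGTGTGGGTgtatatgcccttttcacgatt
RPL26A, chrXII:818982-819071, plus strand: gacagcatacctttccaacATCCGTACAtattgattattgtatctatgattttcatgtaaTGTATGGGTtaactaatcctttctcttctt
RPL8A, chrVIII:36216-36295, minus strand: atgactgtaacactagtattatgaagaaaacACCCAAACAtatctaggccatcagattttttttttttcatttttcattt
RPL8B, chrXII:48790-48929, minus strand: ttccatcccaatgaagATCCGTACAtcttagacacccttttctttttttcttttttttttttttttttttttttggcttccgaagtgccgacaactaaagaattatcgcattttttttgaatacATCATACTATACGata

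The 5 members with the Abf1 motif and neither Rap1 form were *RPL3*, *RPL4A*, *RPP1A*, *RPS28A* and *RPS28B*. Stretches from 4 of them are shown, with the Abf1 match in capitals, chosen after the T15 values were seen. *RPL3*, *RPL4A* and *RPS28A* were among the members least below their controls at T15, while *RPP1A* and *RPS28B* were nearer the median member. *RPL41A*, *RPL41B*, *RPS9A*, *RPS30A* and *RPL10*, which were still less below their controls, held no Abf1 match. Whether the motif bears on the size of the difference was not tested.
RPL3, chrXV:444426-444505, plus strand: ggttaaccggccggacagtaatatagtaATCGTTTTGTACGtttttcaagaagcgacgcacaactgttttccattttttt
RPL4A, chrII:299956-300035, plus strand: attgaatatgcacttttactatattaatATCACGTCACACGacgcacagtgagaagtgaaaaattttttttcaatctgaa
RPS28A, chrXV:649118-649197, minus strand: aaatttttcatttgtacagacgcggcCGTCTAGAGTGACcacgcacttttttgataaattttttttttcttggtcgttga
RPS28B, chrXII:672921-673000, plus strand: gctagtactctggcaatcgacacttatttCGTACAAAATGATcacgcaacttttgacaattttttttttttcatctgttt

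The genes differ greatly in level, measured as RPKM over all 24 libraries. *RPS31*, which codes for a small-subunit protein fused to ubiquitin, had the highest mean, 17373, followed by *RPL29* with 15145, *RPL39* with 15090 and *RPS12* with 12634. The lowest means were those of *RPL15B* (137), *RPL7B* (388), *RPS9A* (493) and *RPL4B* (530), each the weaker copy of a pair. In *RPL4* and *RPL7*, 62.2% and 47.7% of the stretches of 75 bases in the A gene recur in the B gene. The levels of *RPL4B* and *RPL7B* may therefore depend on how reads that fit both copies were placed. When the A and B genes of a protein were summed, the spread narrowed, and 69 of 78 proteins lay within 2-fold of the median of 7521 RPKM. The lowest sums were those of *RPP0*, the core of the stalk that recruits translation factors, with 2691, and *RPL5*, which carries 5S ribosomal RNA into the large subunit, with 3165. The highest was that of the *RPL41* genes, 20490, whose product is one of the smallest proteins of yeast. Mean RPKM of a member was higher in shorter coding sequences (Spearman rank correlation -0.52). The *RPL41* coding sequences have 78 bases, against reads of 75. How far length shaped this order of levels was not tested. Introns were found in 89 of the 137 members, against 328 of 5982 protein-coding genes matched to R64. The deposited RPKM values use the length of the coding exons alone.

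The share of all RPKM held by the 137 genes gives the simplest view of the time course. In control cells of cultures 1, 2 and 3 it was 44.9%, 31.6% and 26.3% at T0 and 55.6%, 57.7% and 44.0% at T15. It then reached 59.6%, 60.5% and 51.8% at T30 and 64.9%, 62.4% and 51.6% at T60. Control cells thus made most of the rise in the first 15 min.
In laser cells the share was 37.7%, 31.8% and 29.2% at T0 and 39.0%, 39.1% and 24.9% at T15. At T30 it was 58.1%, 44.9% and 33.6%, and at T60 67.9%, 55.3% and 51.9%. The laser and control values overlapped at T0, were apart at T15 and overlapped again at T30 and T60. Culture 3 had the lowest share in each of the 8 groups, and at T30 the laser portion of culture 1 was near its control while those of cultures 2 and 3 were not. Weighted by reads rather than by RPKM, the mean share at T15 was 32.1% in control and 18.4% in laser cells.

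**Figure D1:**
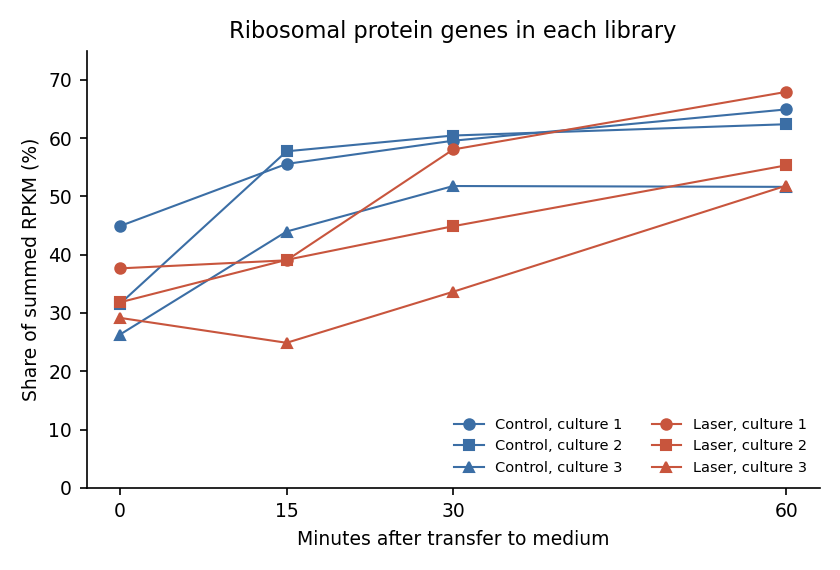
Share of the summed RPKM held by the 137 ribosomal protein genes (%, y axis) against minutes after transfer to medium (x axis), with 1 point per library, blue for control and red for laser cells, and lines joining the libraries of a culture. At 15 min the control libraries lie between 44.0% and 57.7% and the laser libraries between 24.9% and 39.1%.

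Laser and control cells were compared at each time point by limma on log2(RPKM + 1) over all genes tested, with Benjamini-Hochberg adjustment, and a gene was called at an adjusted p under 0.05. All 137 members passed the filter of at least 1 RPKM in at least 3 of the 6 libraries. A second fit took the culture number as a block, since both portions came from 1 culture, and its calls are given as those with the block. At T15 the median log2 fold change of the members was -0.85, with 136 of 137 below 0, and that of the 5887 genes tested was 0.29. After median-ratio rescaling the same medians were -1.18 and -0.02. As the members fill so much of a library, a difference in their share moves the RPKM of other genes the opposite way. Their mean share at T0 and T15 was 34.3% and 52.4% in control and 32.9% and 34.3% in laser cells. The median log2 change of all genes over that time was -0.33 in control and -0.04 in laser cells. In bulk RNA a lower level in every cell and an unchanged level in fewer cells cannot be told apart.

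At T15, 33 members were called lower and 0 higher by limma (0 higher at an unadjusted p under 0.05 as well), against 4.26% and 22.6% of all genes. With the block 132 were lower and 1 higher, against 12.5% and 41.2% of all genes. Every laser value lay below every control value for 82 members, while this held for 9.22% of the genes tested. Within cultures, 134 members were lower in the laser portion of all 3, against 18.4% of the genes tested. The count rests on single libraries, since 0 were called without the control library of culture 1, 4 without that of culture 2 and 68 without that of culture 3. It was 19, 21 and 15 without the laser libraries of cultures 1, 2 and 3, and 17 with no filter on low values.

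**Figure D2:**
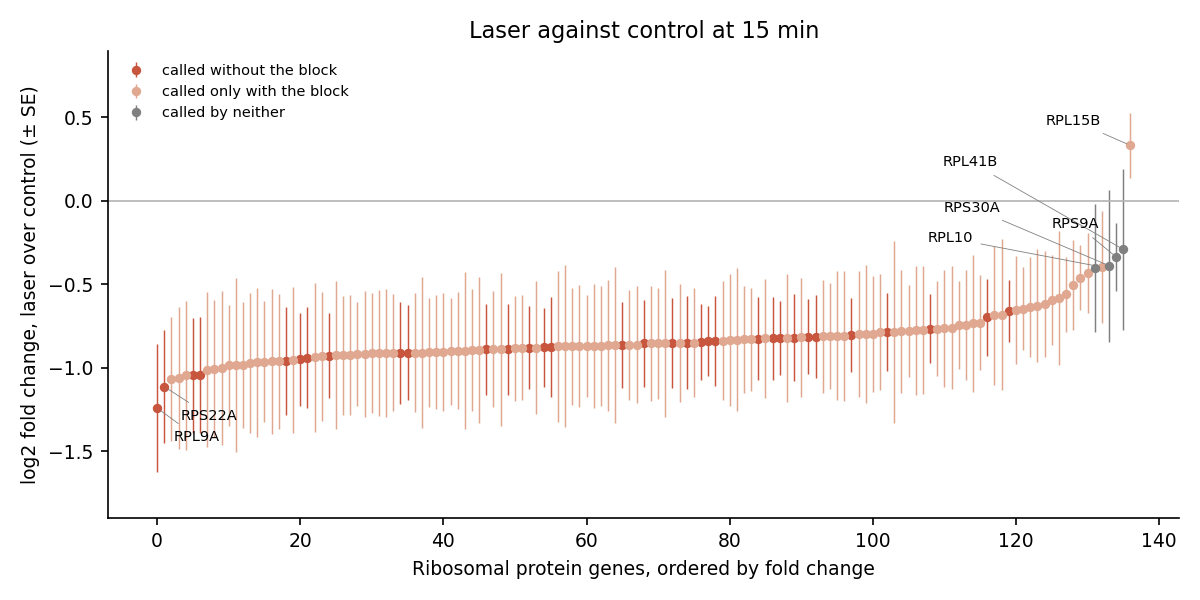
Log2 fold change of laser over control cells at 15 min (y axis, with SE) for the 137 ribosomal protein genes in order of size (x axis). Dark red points were called without the block (33), light red points only with it (100) and grey points by neither (4), and *RPL15B* is the only point above 0.

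*RPL9A*, for a large-subunit protein near the factor-binding side of the ribosome, was furthest below its control at T15. Its RPKM in cultures 1, 2 and 3 was 5541, 5724 and 2793 in control and 2636, 2240 and 1134 in laser cells, a log2 fold change of -1.24 ± 0.38 (SE, limma adjusted p = 0.033). The laser values all lay below the lowest control value. It lost the call without the control library of culture 1 (adjusted p = 0.12) or of culture 2 (0.11), with no filter on low values (0.12) and after median-ratio rescaling (0.055).
*RPS22A*, for a small-subunit protein, had 5717, 5922 and 3677 in control and 3123, 2587 and 1522 in laser cells (-1.11 ± 0.34, adjusted p = 0.031). *RPS10B* and *RPL21A*, for a protein of each subunit, were the other members called at 2-fold, with log2 fold changes of -1.05 and -1.04. The laser and control values of all 4 genes were apart. Over all genes 0.815% were called lower at 2-fold. With the block 10 members passed at 2-fold, against 1.02%, and after median-ratio rescaling 30, against 3.26%.

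The 6 lower members with the smallest p at T15 all lay below the median member level of each T15 control library, which was 5541, 6037 and 3599 RPKM. *RPL18B* had 1144, 1089 and 869 RPKM in control and 672, 580 and 480 in laser cells (-0.84 ± 0.21, limma adjusted p = 0.014). *RPL8B* had 2959, 2466 and 2697 against 1669, 1433 and 1410 (-0.85 ± 0.23, adjusted p = 0.019). *RPL26A*, for a protein at the exit of the peptide tunnel, had 2055, 2191 and 2151 against 1336, 1312 and 999 (-0.82 ± 0.22). In each of the 3 the cultures were close to one another within a group and the groups were apart. *RPS7B*, *RPL16A* and *RPL12A*, whose product sits at the base of the stalk, completed the set with -0.77, -0.88 and -0.93. The log2 fold change was similar in the most abundant genes, where the libraries differed more. *RPS31* had 20265, 22689 and 11657 RPKM in control and 11954, 12648 and 5484 in laser cells, with -0.90 ± 0.47 (adjusted p = 0.17, 0.0012 with the block). *RPS12* and *RPL39*, for a protein of the tunnel wall, had -1.05 and -0.68, called only with the block, as was *RPL29*.

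The stalk and the ubiquitin fusions followed the rest. The stalk is the flexible arm of the large subunit, built on *RPP0* with pairs of P1 and P2 proteins. *RPP0* had 2720, 2850 and 3223 RPKM in control and 1833, 1765 and 1810 in laser cells at T15 (-0.70 ± 0.23, limma adjusted p = 0.044), with no overlap. *RPP1A*, *RPP1B*, *RPP2A* and *RPP2B* had log2 fold changes of -0.77, -0.76, -0.91 and -0.78, and each was called only with the block. The median of the 5 stalk genes was -0.77. *RPL40A* and *RPL40B*, which code for a large-subunit protein fused to ubiquitin, had -0.76 and -0.91, also called only with the block (adjusted p = 0.0031 and 0.0015).

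Large and small subunit genes moved alike. At T15 their median log2 fold changes were -0.85 and -0.87, at T30 -0.46 and -0.50. Culture by culture at T15 the large-subunit medians were -0.67, -0.82 and -1.04 and the small-subunit medians -0.71, -0.86 and -1.05. Of the 33 members called at T15, 20 belong to the large and 13 to the small subunit. The ratio of summed RPKM of large to small subunit genes stayed between 1.33 and 1.39 over all 24 libraries. Within that narrow range it was 1.334 to 1.355 in control and 1.359 to 1.392 in laser cells at T15, which did not overlap. The ranges overlapped at T30, T60 and T0, where they were 1.356 to 1.392 in control and 1.358 to 1.390 in laser cells. Members with introns had a median of -0.87 and those without -0.83. The motif groups also lay close together, at -0.86 for 54 members with ACCCNNACA, -0.87 for 35 with ATCCNNACA alone and -0.86 for 43 with none of the motifs. For the 5 with the Abf1 motif and neither Rap1 form it was -0.58, with values from -0.79 to -0.43. These groups were set after the values had been seen and were not tested.

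**Figure D3:**
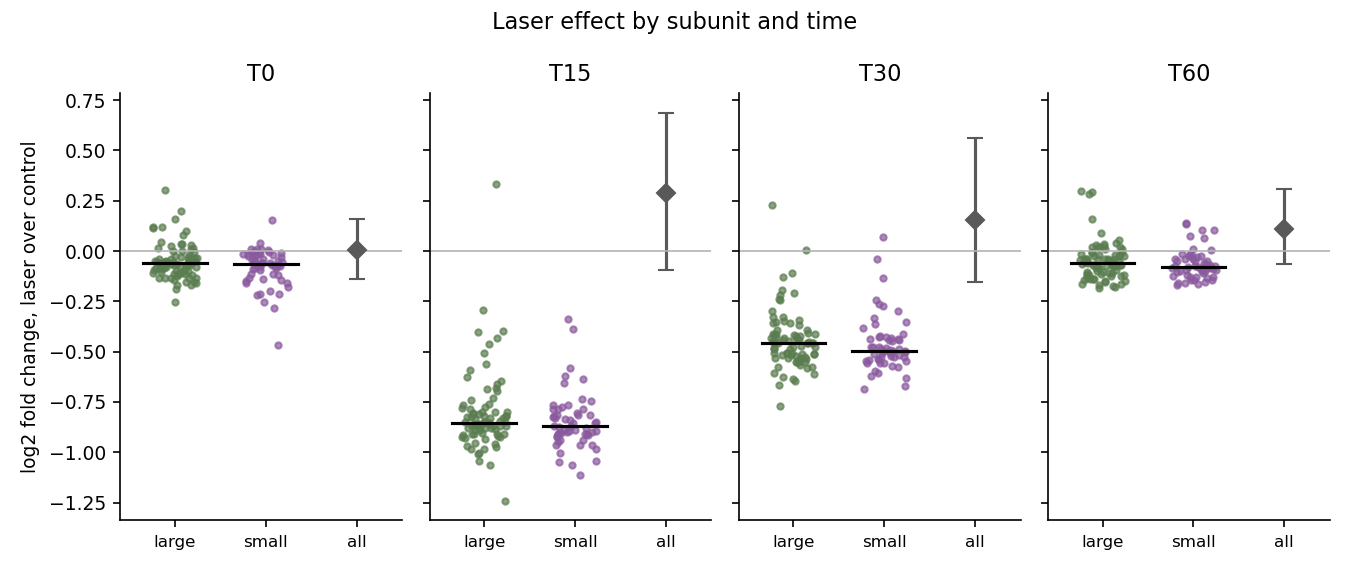
Log2 fold change of laser over control cells (y axis) at each time point for the genes of the large (81) and small (56) subunit, 1 point per gene with the median as a bar, beside the median and quartiles of all genes tested (grey diamond). At T15 the subunit medians are -0.85 and -0.87 and the median of all genes is 0.29.

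A few members stood apart at T15. *RPL15B*, the weak copy of a large-subunit protein gene, had 121, 148 and 105 RPKM in control and 171, 169 and 130 in laser cells. Its laser value was above its control value in each culture, although the groups overlapped, and its log2 fold change was 0.33 ± 0.19 (limma adjusted p = 0.22, 0.025 with the block), or 0.01 after median-ratio rescaling. *RPL41B* had 10128, 12995 and 8512 in control and 10442, 14565 and 4020 in laser cells (-0.29 ± 0.48). *RPL41A* was at -0.40, *RPS30A* at -0.39 and *RPS9A* at -0.34. These 4 genes were the members called neither with nor without the block. *RPL10*, the last large protein to join the subunit, and *RPL3* and *RPL4A*, which line the catalytic core and the peptide tunnel, were at -0.40, -0.51 and -0.43, each called with the block only.

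The *RPL41* pair shows how alike the coding sequences of paralogs can be. Both coding sequences have 78 bases, and they differ at a single base, shown in capitals.
RPL41A, chrIV:130407-130484, minus strand: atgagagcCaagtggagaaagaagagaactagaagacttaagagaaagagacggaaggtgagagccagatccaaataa
RPL41B, chrIV:221724-221801, minus strand: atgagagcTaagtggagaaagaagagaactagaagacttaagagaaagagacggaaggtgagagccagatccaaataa
Each of the 4 possible stretches of 75 bases, the length of a read, holds this base, so none was shared between the genes. How the authors' software placed reads that fit 2 genes is not given in the sources used here. Summed over the pair, *RPL41* held 20490 RPKM on average. The coding sequences of 8 pairs were at least 98% identical. In *RPL35*, 78.9% of the stretches of 75 bases in the A gene recurred unchanged in the B gene, while 33 of the 59 pairs shared none. Identity over all pairs ran from 68.9% to 99.4%.

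At T30 the members were still lower in 2 cultures. The median log2 fold change was -0.48, made up of 0.07, -0.61 and -0.84 in cultures 1, 2 and 3. None was called lower or higher by limma, with 6 lower at an unadjusted p under 0.05, while 2.15% of all genes were called lower and 14.4% higher. Every laser value lay below every control value for 17 members (7.29% of all genes), and 54 were lower in each culture (16.4%). With the block 10 members were called lower, against 5.91% of all genes, and without the laser library of culture 1 the count was 64. *RPL8B* came closest, with 3516, 3349 and 3562 RPKM in control and 2326, 2195 and 2140 in laser cells (-0.65 ± 0.22, adjusted p = 0.076, 0.018 with the block). Its groups were well apart in all cultures.
*RPL7A* (-0.64), *RPL16A* (-0.58), *RPL18B* (-0.46), *RPS0B* (-0.48) and *RPS0A* (-0.50), the last pair for a protein of the mRNA exit side, followed by p. *RPL9A* was at -0.77 (adjusted p = 0.24, 0.015 with the block). *RPL15B*, *RPS30A* and *RPL9B* were above 0 in RPKM as deposited, at 0.23, 0.07 and 0.00, and the last 2 were below 0 after either rescaling.

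At T0 and T60 no difference between the portions passed the test, which at T60 recovered 0% of simulated 2-fold changes. No member was called in either direction by limma, 0 had an unadjusted p under 0.05 at T0 or T60, and 0 were called with the block. Of all genes 0.017% were called higher at T0 and 0.051% lower and 0.187% higher at T60. With the block 0.476% were lower and 1.04% higher at T0, and 3.62% and 9.36% at T60. The median was -0.06 at T0 and -0.07 at T60, and the cultures went different ways, at -0.38, 0.02 and 0.18 at T0 and 0.15, -0.32 and -0.01 at T60. At T0 the smallest p were those of *RPS9A* (-0.47), *RPS14B* (-0.28) and *RPL7B* (-0.14) below 0, and of *RPL4A* (0.30), *RPL3* (0.20) and *RPL4B* (0.12) above. At T60 they were those of *RPL7A* (-0.18), *RPL13A* (-0.15) and *RPS2* (-0.16), and of *RPL9B* (0.30), *RPL7B* (0.29) and *RPL22B* (0.28). *RPL9B* had 1011, 959 and 930 RPKM in control and 1402, 1096 and 1096 in laser cells at T60. Its groups did not overlap, yet its adjusted p was 0.86 (0.16 with the block).

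The time courses show where the difference arose. From T0 to T15 in control cells the median log2 change was 0.86, with 136 of 137 members above 0, against -0.33 for the 6146 genes of the fit of all 24 libraries. In that fit 57 members were called higher, 23 of them at 2-fold, against 4.93% and 1.56% of all genes, and 132 with the block (9.27%). At 2-fold the count was 38 with the block (1.97%) and 49 after median-ratio rescaling (4.25%). Leaving out single libraries gave 23 to 113, with 113 when the T0 control of culture 1 was left out. The counts without the T0 controls of cultures 2 and 3 were 26 and 23, and without the T15 controls of cultures 1 and 2 they were 27 and 28. In laser cells the median change over the same 15 min was 0.07. There 3 members were called higher, against 5.4% of all genes, and 10 with the block against 9.79%. The laser cells rose later, by a median of 0.52 from T15 to T30 and 0.50 from T30 to T60. Of these rises 1 member each was called (0.423% and 1.84% of all genes), and 61 and 70 with the block (2.25% and 4.88%). Control cells changed little in these intervals, with medians of 0.15 and 0.10 and 0 members called higher, with or without the block, and 1 and 0 higher at an unadjusted p under 0.05. Of all genes 0.96% and 0.521% rose there, and 2.26% and 2.07% with the block.

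Whether the laser effect itself differed between times was tested in the same fit. From T0 to T15 the effect of 1 member became lower, *RPL8B* with -0.87 ± 0.22 (limma adjusted p = 0.024), against 0.293% of all genes. With the block there were 86, against 2.83%. At 2-fold there were 0 (0.244% of all genes), 7 with the block (0.7%) and 4 after median-ratio rescaling (1.04%). In the fit without the block the call on *RPL8B* was lost when any one of 7 libraries was left out, 4 at T0 and 3 at T15. From T15 to T30 no member was called, with 2 higher at an unadjusted p under 0.05 and 1 with the block, *RPL9B* at 0.56 (0.195% and 0.797% of all genes higher). From T30 to T60 none was called with or without the block, 1 having an unadjusted p under 0.05 (0.26% and 1.32% of all genes higher). The smallest p there were those of *RPL8B* (0.51), *RPL7B* (0.50), *RPL7A* (0.45), *RPL16A* (0.50) and *RPP0* (0.40). Each of these rises in the laser effect had a standard error of 0.22 to 0.29.

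Some members rose in both portions in the first 15 min, chosen here after their values were seen. *RPS9A*, for a protein that guards decoding accuracy, had 509, 231 and 198 RPKM in control cells at T0 and 624, 759 and 656 at T15. In laser cells it had 255, 192 and 178 at T0 and 627, 563 and 436 at T15. The log2 changes were 1.24 ± 0.24 and 1.37 ± 0.24 (limma adjusted p = 0.00063 and 0.00046), and the T15 values were above the T0 values in every culture.
*RPS14B* had 381, 187 and 153 RPKM in control cells at T0 and 816, 1041 and 702 at T15, a change of 1.92 ± 0.32. In laser cells it went from 211, 182 and 157 to 514, 574 and 278 (1.25 ± 0.32, adjusted p = 0.011). It is known in yeast for regulation by its own protein, which binds the transcript and blocks its splicing.
*RPS28B* changed most, from 2643, 800 and 514 to 6045, 7523 and 2850 in control cells (2.30 ± 0.66, adjusted p = 0.013). In laser cells it had 1600, 784 and 510 at T0 and 4359, 5108 and 1137 at T15 (1.77 ± 0.66, adjusted p = 0.086, 0.00033 with the block). Its protein is likewise known to act on its own transcript, which it marks for decay. *RPL7B* was the remaining member called in laser cells (0.55 ± 0.18, adjusted p = 0.0497).

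The paralogs of a pair differed in level far more than they differed in response. Over the 24 libraries the median size of the mean log2 ratio of A to B was 0.91, 28 of the 59 pairs differed at least 2-fold, and 48 had the same copy ahead in every library. In 27 pairs this was the A and in 21 the B gene. The most unequal were *RPL15* (log2 ratio 5.85), *RPL22* (3.49), *RPS9* (-3.46), *RPS14* (3.35) and *RPL7* (3.24). The *RPL7* genes share 47.7% of their stretches of 75 bases, so that ratio may depend on how such reads were placed. The most equal were *RPP2* (-0.04), *RPS0* (-0.05) and *RPS30* (0.07). Without the 8 nearly identical pairs the median size was 0.83. The laser moved these ratios little at T15, by a median of 0.09 in size over the pairs, and 53 of the 59 moved by less than 0.25. The same median was 0.07 at T0, 0.07 at T30 and 0.06 at T60.

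**Figure D4:**
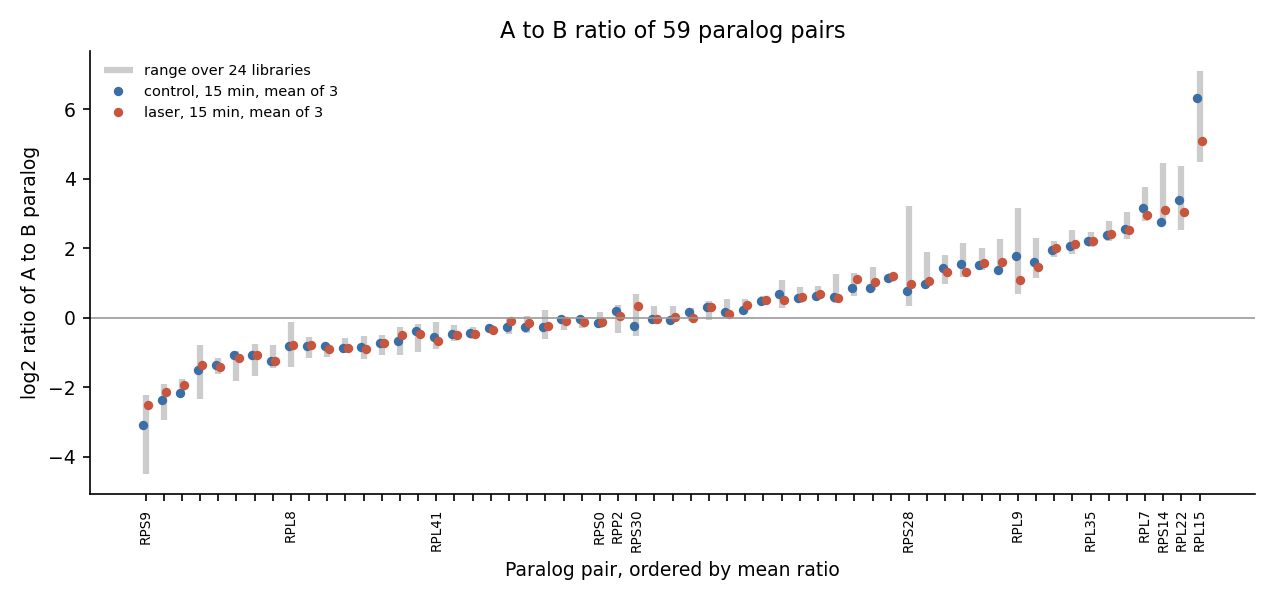
Log2 ratio of the A to the B paralog (y axis) for 59 pairs in order of their mean (x axis, with the pairs named in the text labelled), with the range over 24 libraries as a grey bar and the means of 3 control (blue) and 3 laser (red) libraries at 15 min. The red and blue points nearly coincide in most pairs, and *RPL15*, at the right end, shows the largest gap.

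The ratio of 4 pairs moved by at least 0.5 at T15. That of *RPL15* was 6.62, 6.52 and 5.78 in control and 5.39, 5.36 and 4.50 in laser cells, a difference of -1.22 ± 0.06 (SD, n = 3 cultures). *RPL15A* had 11966, 13694 and 5795 RPKM in control and 7233, 6994 and 2953 in laser cells, while *RPL15B* was higher in the laser portion. The strong copy therefore moved with the other members and the weak copy did not. The *RPL9* ratio was 1.90, 2.14 and 1.29 against 1.30, 1.31 and 0.67, a difference of -0.68 ± 0.13, as *RPL9B* was at -0.56 against -1.24 for *RPL9A*. *RPS30* and *RPS9* moved the other way, by 0.57 ± 0.19 and 0.56 ± 0.19. Each of these differences had the same sign in all 3 cultures.
Next was *RPL22*, with -0.33 ± 0.22, *RPL22A* being at -1.06 and *RPL22B* at -0.73. At T30 the pairs with the largest differences were *RPL15* (-0.78 ± 0.28), *RPL9* (-0.77 ± 0.33), *RPS9* (0.59 ± 0.40), *RPL8* (0.54 ± 0.19) and *RPL22* (-0.45 ± 0.18). In the *RPL8* pair *RPL8A* had 1914, 2026 and 1876 RPKM in control and 2134, 1754 and 1548 in laser cells at T30, which overlap, while *RPL8B* stayed well below its control. *RPL8A* rose in laser cells from T15 to T30 by 1.04 ± 0.17 (limma adjusted p = 0.002).

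The ratios of the *RPS28* and *RPS14* pairs moved with time in both portions, and were chosen here after their values were seen. In control cells the *RPS28* ratio was 1.64, 2.64 and 2.94 at T0 and 0.52, 0.52 and 1.22 at T15. In laser cells it went from 2.13, 2.59 and 3.20 to 0.61, 0.70 and 1.56. The mean changes were -1.65 ± 0.50 and -1.69 ± 0.19 (SD, n = 3 cultures). The weak copy thus came closer to the strong copy in both portions. The *RPS14* ratio moved by -1.33 ± 0.32 in control and -1.30 ± 0.18 in laser cells. The *RPL15* ratio rose in control cells by 1.51 ± 0.42.

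**Figure D5:**
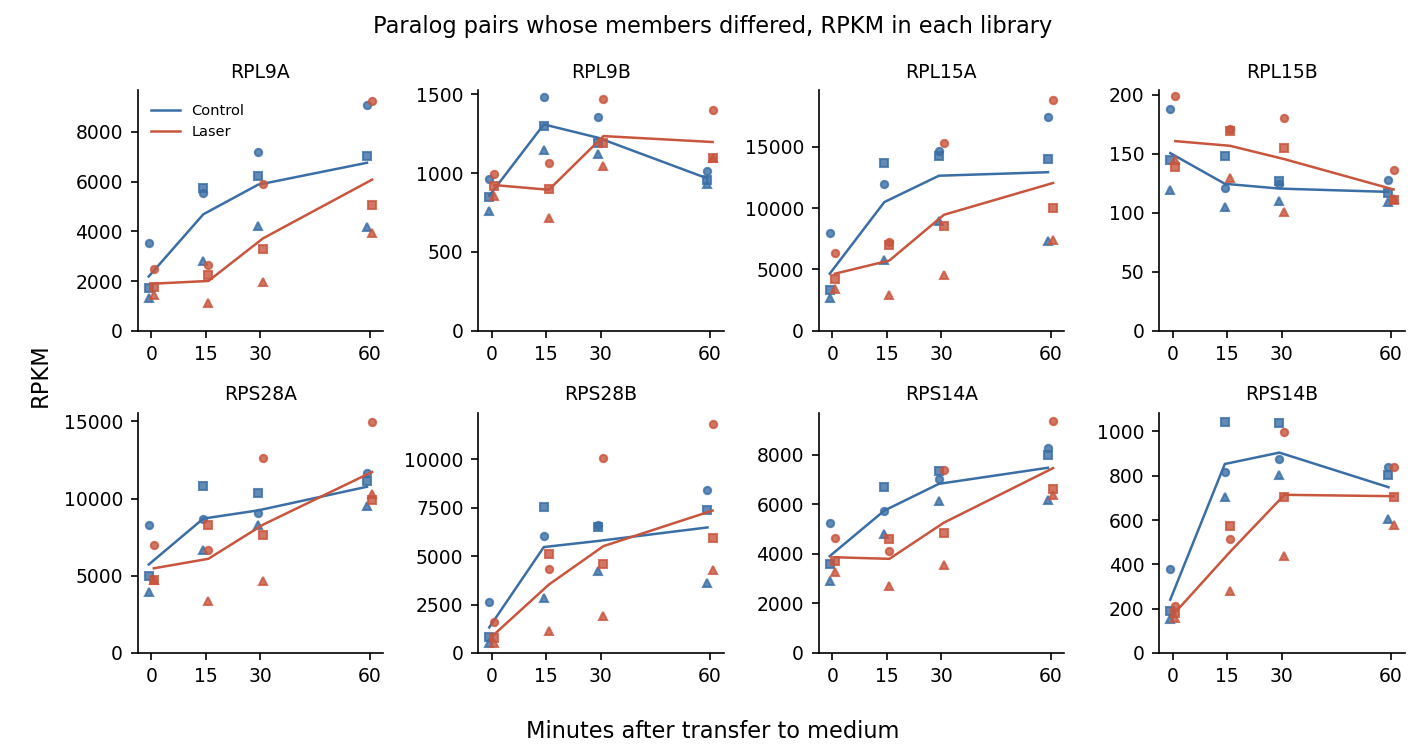
RPKM (y axis) against minutes after transfer (x axis) for both genes of the *RPL9*, *RPL15*, *RPS28* and *RPS14* pairs, with 1 point per library (circle, square and triangle for cultures 1, 2 and 3) and lines through the means of 3, blue for control and red for laser cells. *RPL15B* stays between 101 and 199 RPKM throughout, while *RPS28B* and *RPS14B* climb in both portions by 15 min.

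Genes that regulate the ribosomal protein genes moved unevenly. The list held 15 of them, and at T15 limma called 3 higher and 0 lower, against 22.6% and 4.26% of all genes. With the block 4 were higher and 3 lower, against 41.2% and 12.5%. Neither count of higher genes exceeded the share over all genes. *STB3*, a repressor of growth genes, had 33.5, 33.7 and 49.5 RPKM in control and 72.2, 80.2 and 95.5 in laser cells (1.08, adjusted p = 0.0041), with no overlap. *YAK1*, a kinase that works against growth, had at most 26.7 RPKM in control and at least 43.7 in laser cells (1.62, adjusted p = 0.002). *DOT6*, a repressor of ribosome assembly genes, was the remaining gene called, at 0.60. The laser values of all 3 lay above the control values.
The other genes of the list were mixed. *FHL1* was at -0.48 and *IFH1*, its coactivator, at -0.41, both called only with the block (adjusted p = 0.034 and 0.019). *TOD6*, a relative of *DOT6*, went the other way from it, at -0.48 (adjusted p = 0.066, 0.0045 with the block). *RAP1* was at -0.15, *SFP1* at 0.14, *HMO1* at 0.11, *ABF1* at 0.28, *MRS6*, which holds Sfp1 outside the nucleus, at -0.10, and *SCH9*, a growth-promoting kinase below TOR, at 0.34 (adjusted p = 0.19, 0.028 with the block). *TOR1*, its partner *KOG1* and *CRF1*, a corepressor, were at 0.13, 0.11 and 0.58. At T30 *STB3* (0.88, limma adjusted p = 0.047) and *CRF1* (1.26, adjusted p = 0.046) were called higher, against 14.4% of all genes. *CRF1* was low, with 0.576, 1.32 and 1.32 RPKM in control and 3.41, 4.21 and 4.11 in laser cells. *STB3* fell by 1.27 from T0 to T15 in control cells (adjusted p = 0.0057) and had a log2 change of -0.13 in laser cells over the same time.

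Neighbouring gene groups are given as counts, to be read against the 4.26% of all genes called lower and 22.6% called higher at T15, or 12.5% and 41.2% with the block. Of 24 chaperones and partners of ribosomal proteins 3 were called lower and 1 higher at T15 (12 and 3 with the block), with a median of -0.31. *TSR2*, which escorts Rps26, was at -0.69 (limma adjusted p = 0.010), *BCP1*, for Rpl23, at -0.54 and *ACL4*, for Rpl4, at -0.50, while *PHO85*, a kinase also on the list, was at 0.69. Of 144 genes of ribosome biogenesis 52 were called lower and 0 higher at T15 (124 and 1 with the block), with a median of -0.52. Of 41 translation factors 1 was called lower and 0 higher (15 and 1 with the block), with a median of -0.22. The mitochondrial ribosomal protein genes, which serve a separate ribosome and lack the shared promoter control, went the other way. Of 79 tested 0 were called lower and 35 higher at T15 (0 and 74 with the block), against 22.6% and 41.2% of all genes called higher, with a median of 0.60 beside the 0.29 of all genes.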

How the data were processed

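RNA from control and irradiated BY4741 cells was enriched for mRNA with a stranded kit, sequenced as paired 75-base reads in 3 cultures at 4 times, aligned to the S288C genome with SeqMan NGen and quantified in ArrayStar by the authors. How strand and reads that fit several genes were treated is not given in the sources used here. The RPKM values deposited by the authors, in 4 tables, were used as they stand, and the deposited fold changes, t scores and p-values were not used. The lowest listed value is 0.021. Library sizes were worked out from low RPKM values, which are whole multiples of 1 read for a gene of given length. Of the low values of genes with introns 95.5% were within 0.08 of a whole read with the coding length and 21.1% with the genomic length. The recovered reads were not used for tests.

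Values were compared as log2(RPKM + 1) by limma 3.58.1 in R 4.3.3 with a variance trend, for genes with at least 1 RPKM in at least 3 libraries, two-sided, with Benjamini-Hochberg adjustment over all genes. Fold changes on this scale are slightly understated in genes of low level. Laser and control cells were compared within the 6 libraries of a time, and times in 1 fit of all 24. Tested on simulated data with the T15 libraries' means and spread (5887 genes), the fit recovered 94.5% of 4-fold and 31.5% of 2-fold changes. At T60 (5877 genes) it recovered 85% and 0%. The simulated noise was independent between genes and 200 genes were changed. Members that move together may therefore be recovered at other rates.

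Replicate numbers were read as cultures, since each culture was divided into both portions. Deviations of same-numbered portions from their group means correlated over all genes between -0.02 and 0.47, with a median of 0.30. Over members they ran from -0.53, for culture 2 at T60, to 0.95, with a median of 0.80. The median between different numbers, -0.17 over all genes, is no separate evidence, since deviations within a group balance out. In places a different number matched better. At T30 control 2 correlated over all genes at 0.25 with laser 1 and at 0.02 with laser 2. The calls with the block rest on this pairing. Both portions of a culture share growth, so the cultures are the independent units. Alternatives were pseudocounts of 0.1 and 5, no filter, 2 rescalings, the block, no trend, 1 fit of all libraries, calls at 2-fold and leaving out each library.

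The members, lists and tests were chosen with earlier results of these data known. Named members follow a rule: members called at 2-fold between laser and control, the smallest p at each time, the highest and lowest levels, the stalk, the ubiquitin fusions, and the pairs most and least unequal or most moved. Members outside it were named after their values were seen. Positions and sequences come from RefSeq R64, which matched all 137 members and 6074 of 6427 genes. Tables, sequences and plots were made with Python 3.11.15, pandas 2.3.3, NumPy 2.4.6, Biopython 1.88 and Matplotlib 3.10.9.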

Additional observations from a re-analysis of the deposited data

Results flagged for a closer look

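The laser effect on *RPL8B*, for a protein of the large subunit, was lower at T15 than at T0 by 0.87 on the log2 scale (-0.87), tested as a difference of the effects in 1 limma fit of all 24 libraries. It was the only member whose effect passed this test without the block, against 0.293% of all genes. With the block 86 members passed, against 2.83%. The change was near the median of all members, -0.79. Leaving out single libraries gave limma adjusted p from 0.012 to 0.082 for *RPL8B*. At T15 the value of *RPL8B* was lower in the laser portion of all 3 cultures, which held for 134 of 137 members and 18.4% of the genes tested.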

How the results depend on the processing

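Pseudocounts of 0.1 and 5 kept direction and call in all 90 gene values tried, and limma without the trend ended 4 calls. Members called lower at T15 numbered 33, and 17 with no filter, 90 after rescaling to the summed RPKM of all other genes, 132 with the block, 135 with the block and median-ratio rescaling (a pair of choices added after the data were seen) and 4 at 2-fold. After median-ratio rescaling it was 34, 30 of them at 2-fold, and 10 were at 2-fold with the block. With the block 1 was higher. At T30 the main count of 0 became 2 with no filter, 3 after rescaling to other genes, 10 with the block, 2 with the block and median-ratio rescaling and 4 in 1 fit of all libraries. From T0 to T15 in control cells the count of 57 became 94, 132 and 133 under rescaling to other genes, the block, and the block with median-ratio rescaling, and 23 at 2-fold (38 with the block, 49 after median-ratio rescaling). Control cells from T15 to T30 gave 1 with the block and median-ratio rescaling. In laser cells T0 to T15 gave 10 and 8 with the block, without and with median-ratio rescaling. T15 to T30 gave 4 with no filter, 3 and 4 under the rescalings, and 61 and 51 with the block. T30 to T60 gave 4, 2 and 11, then 70 and 63, and 0 at 2-fold. The change in laser effect from T0 to T15 gave 2 with a pseudocount of 5, 10 with no filter, 7 and 11 under the rescalings, 86 and 80 with the block, and 0 at 2-fold (7 with the block, 4 after median-ratio rescaling). From T15 to T30 the block gave 1, and from T30 to T60 the block with median-ratio rescaling gave 1. The cause of these shifts was not tested.

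The T15 median became -1.18 after median-ratio rescaling, with or without the block, and -1.13 after rescaling to other genes. As shares of reads, control cells held 18.4%, 32.1%, 35.6% and 38.7% at the 4 times and laser cells 17.2%, 18.4%, 27.0% and 37.2%. The median size of the A to B ratio was 0.83 without nearly identical pairs.

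Leaving out single libraries gave 0 to 68 at T15, 0 to 64 at T30, 23 to 113 for control T0 to T15 (26 and 28 without culture 2 at T0 and T15), 1 to 5, 1 to 3 and 0 to 5 for the laser intervals, and 0 to 18 for the change in laser effect from T0 to T15 (6 without the laser library of culture 1 at T60). Medians of all, large and small subunit members ran from -0.32 to 0.25, -0.31 to 0.25 and -0.32 to 0.24 at T0, and from -1.06 to -0.55, -1.04 to -0.54 and -1.09 to -0.59 at T15. At T30 they ran from -0.78 to -0.13, -0.78 to -0.12 and -0.78 to -0.18, and at T60 from -0.28 to 0.10, 0.11 and 0.09. Shares of RPKM ran from 28.9% to 38.3%, 49.8% to 56.7%, 55.7% to 60.0% and 57.0% to 63.7% in control and from 30.5% to 34.7%, 32.0% to 39.1%, 39.3% to 51.5% and 53.6% to 61.6% in laser cells.

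Signs turned in genes near 0. *RPS30A* at T30 was -0.11 after median-ratio rescaling and -0.16 after rescaling to other genes. *RPL9B* at T30 was -0.18 and -0.23. *RPL15B* from T0 to T15 in control cells was 0.066 and 0.0075. Without single libraries *RPS30A* ran from -0.71 to 0.070 at T15 and from -0.32 to 0.49 at T30, *RPL41B* from -0.68 to 0.25 at T15, *RPL9B* from -0.13 to 0.12 at T30, *RPS14B* from -0.55 to 0.11 and *RPL7B* from -0.29 to 0.045 at T0. From T0 to T15 in control cells *RPL41A* ran from -0.18 to 0.37 and *RPL41B* from -0.32 to 0.45 (-0.079 and -0.086 without the T15 control of culture 2).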
